A study of Mus musculus with 9 samples.

Results

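The clustered protocadherins are cell-surface adhesion proteins of the cadherin superfamily encoded by 3 neighbouring gene clusters, Pcdha, Pcdhb and Pcdhg. They were taken here as every protein-coding mouse gene whose symbol starts with Pcdha, Pcdhb or Pcdhg and whose Ensembl identifier occurs in the count tables. The rule found 57 of 55536 genes, 14 in Pcdha, 22 in Pcdhb and 21 in Pcdhg, all on the plus strand of chromosome 18 in mm10. Pcdha runs from 36930184 to 37187661, Pcdhb from 37264938 to 37524479 and Pcdhg from 37661793 to 37841873. Pcdhgb8 bears a matching symbol but is annotated as a polymorphic pseudogene and was left out. The gene ENSMUSG00000007440 is called Pcdha10 here, the RefSeq name of its transcript, since the GENCODE annotation gives it the symbol Pcdha11 that a second gene also bears.

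Messenger RNA was sequenced from lumbar dorsal root ganglia of adult C57Bl6 mice. These ganglia house the cell bodies of the sensory neurons that serve the hindlimbs. The icKO group held 5 libraries with an inducible conditional knock-out of Prdm12, a zinc finger regulator known for its role in nociceptors, and the control group 4 libraries labelled wild type. All were taken 1 month after tamoxifen, which activates inducible Cre. The labels give neither the Cre driver nor the deleted exon, and do not say whether a library came from 1 animal or whether controls carried Cre or a floxed allele. P-values therefore weigh the difference only against the scatter of these 9 libraries, part of which may be technical.

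Neurons display combinations of clustered protocadherins on their surface, which bind the same combination on another membrane and let a neuron tell its own branches from those of its neighbours. In Pcdha and Pcdhg, each gene has its own large first exon with its own promoter, spliced to constant exons that all genes of the cluster share. Pcdhb genes are single exons and have no constant part. Most members, the alternate isoforms, are switched on in few cells by a random choice of promoter that depends on CTCF, cohesin and DNA methylation. The C-type members Pcdhac1, Pcdhac2, Pcdhgc3, Pcdhgc4 and Pcdhgc5 lie at the 3′ ends of Pcdha and Pcdhg and are used more uniformly among neurons.

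Library totals ranged from 19607740 to 29481589 counts. Prdm12, the targeted gene, lay at 22.3 to 26.2 CPM in icKO and 116 to 163 CPM in control, and fell by 2.48 on the log2 scale (SE 0.09, edgeR adjusted p = 2.51e-08). CPM stands for counts scaled to a common library size with TMM factors. Neuron markers (7 genes) summed to 11130 to 13222 CPM in icKO and 11289 to 13561 CPM in control, and satellite glia markers (6 genes) to 3966 to 4673 and 3704 to 4904 CPM. Some libraries stood apart in markers of other tissues: 6 spinal cord markers summed to 82.5 CPM in control 4 against 20.1 to 27.5 CPM in the other 8 libraries, and 5 skeletal muscle markers to 47.9 CPM in control 2 and 30.4 CPM in icKO 1 against 4.04 to 13.5 CPM elsewhere. Fibroblast and meninges markers (6 genes) summed to 626 CPM in control 1 and 761 CPM in icKO 2, against 1186 to 1905 CPM in the other 7. Of the 49 tested markers of other cell types and neurons, 0 passed an adjusted p of 0.05 with edgeR or DESeq2, and without adjustment 0 were higher and 3 lower. Over all genes the shares that passed were 0.852% with edgeR and 2.8% with DESeq2. Without adjustment, 4.85% were higher and 6.26% lower in edgeR.

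What the counts can see differs between the clusters. Because constant exons belong to every gene of Pcdha or of Pcdhg, a read there cannot be given to 1 member, and a median of 46.4% of the annotated exon bases of Pcdha genes and 54.8% of those of Pcdhg genes are covered by no other gene. In Pcdhb, 19 of 22 genes share no exon base. For Pcdha10 the exons beyond the first hold 2860 bases and for Pcdhga5 2119 bases, of which 0 are unshared in either gene. Levels of members are therefore compared per kb of exon that no other gene covers on either strand. Since strand use is not known, levels per kb of exon unshared on the same strand only, a length chosen after seeing the data, are given where they turn an order.

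Sequence likeness was measured as the share of 50-base words of a member's first exon that also occur in a transcript of another member. The median share was 14.7% in Pcdha (0 to 23.4%), 4.26% in Pcdhb (0 to 12.0%) and 0.601% in Pcdhg (0 to 39.5%, the highest for Pcdhga4). All 5 C-type members had 0% of such words. How reads that fit several places were counted is not given in the sources used here, so levels of members with many shared words are uncertain.

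Of the 57 members, 52 passed the filter on low counts and were tested, 11 in Pcdha, 21 in Pcdhb and 20 in Pcdhg. The remaining 5 were Pcdha4, Pcdha8, Pcdha11, Pcdhb1 and Pcdhga10. Pcdhga10 had 0 counts in all 9 libraries, where 3 counts would equal 0.102 to 0.153 CPM. Its first exon of 2613 bases is fully covered on the other strand by exons of the predicted gene Gm26672, so that 0 of its exon bases are unshared when strand is ignored. Pcdha4 had 6 counts over all libraries, and only 404 of its 5768 exon bases are unshared, with the predicted gene Gm42416 on the same strand. Pcdha11 had 3 counts. Of its 7535 exon bases 1268 are unshared when strand is ignored, more than in Pcdha4. Still, 97.8% of the words of its first exon occur in another gene on either strand, among them the antisense gene Gm10545. Absence of these 3 transcripts can therefore not be read from their counts.

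Pcdhb1 and Pcdha8 were low without such overlap. Pcdhb1 had 3 counts in all over the 9 libraries although all of its 2588 exon bases are unshared. Pcdha8 had 80 counts, 4 to 17 per library, over 2478 unshared bases, at 0.129 ± 0.0310 CPM per kb in control (SD, n = 4) and 0.148 ± 0.0854 CPM per kb in icKO (SD, n = 5).

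Pcdhac2 was the member with the highest level. In control it lay at 27.2 ± 4.14 CPM per kb (SD, n = 4), 2.00 times Pcdhac1 at 13.6 ± 1.96 CPM per kb, and Pcdhac2 was above Pcdhac1 in 9 of 9 libraries. Pcdhac2 is known for its role in spreading the axons of serotonergic neurons. Both were far above the alternate Pcdha isoforms, whose tested members ranged from 0.630 CPM per kb for Pcdha1 to 3.44 ± 0.623 CPM per kb for Pcdha12. Which alternate gene was highest depends on the length, since the antisense gene Gm10545 overlaps Pcdha12: per kb unshared on the same strand Pcdha12 was at 2.70 and Pcdha9 at 2.79 CPM per kb, and over all exon bases Pcdha9 was again the higher, at 1.30 against 1.25. Together Pcdhac1 and Pcdhac2 took 71.3 to 75.0% of the Pcdha counts of each control library and 68.6 to 73.9% in icKO.

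In Pcdhg the leading member depended on the length used. Pcdhgc3, a C-type member known to act in dendrite growth, was at 5.15 ± 1.07 CPM per kb in control (SD, n = 4) and above Pcdhga3, at 3.34 ± 1.00 CPM per kb, in 9 of 9 libraries. The antisense gene BC037039 covers 1559 of the 3380 bases of Pcdhgc3 that are unshared on its own strand. Counted over all 3380 bases Pcdhgc3 was at 2.78 CPM per kb, above Pcdhga3 in 2 of 9 libraries, and over all exon bases it was at 1.71 against 1.84 for Pcdhga3. Pcdhga11, overlapped by Gm26672 on the other strand, came next at 2.82 ± 0.642 CPM per kb, with Pcdhga3 above it in 5 of 9 libraries, but at 1.34 CPM per kb unshared on the same strand, below Pcdhga6 at 1.82. Pcdhgc4, a member needed for the survival of many neurons in development, lay at 1.39 CPM per kb, within the range of the alternate genes. Pcdhgc5, a C-type member known from the mature brain, was the lowest tested member of Pcdhg, at 0.185 ± 0.0735 CPM per kb. The gamma-A genes had a median of 1.69 CPM per kb over 11 tested members and the gamma-B genes 0.661 CPM per kb over 6 (1.40 and 0.570 per kb unshared on the same strand).

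In Pcdhb the tested members ranged from 0.540 to 4.69 CPM per kb in control, with a median of 1.21. Pcdhb9 was highest at 4.69 ± 0.286 CPM per kb (SD, n = 4), followed by Pcdhb17 at 2.58 ± 0.0951 and Pcdhb20 at 2.13 ± 0.319 CPM per kb. Pcdhb9 was above Pcdhb17, and Pcdhb17 above Pcdhb20, in 9 of 9 libraries. The place after Pcdhb17 was not stable: Pcdhb22 had a control mean of 2.11 CPM per kb, and Pcdhb20 was above it in 3 of 9 libraries.

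**Figure D1:**
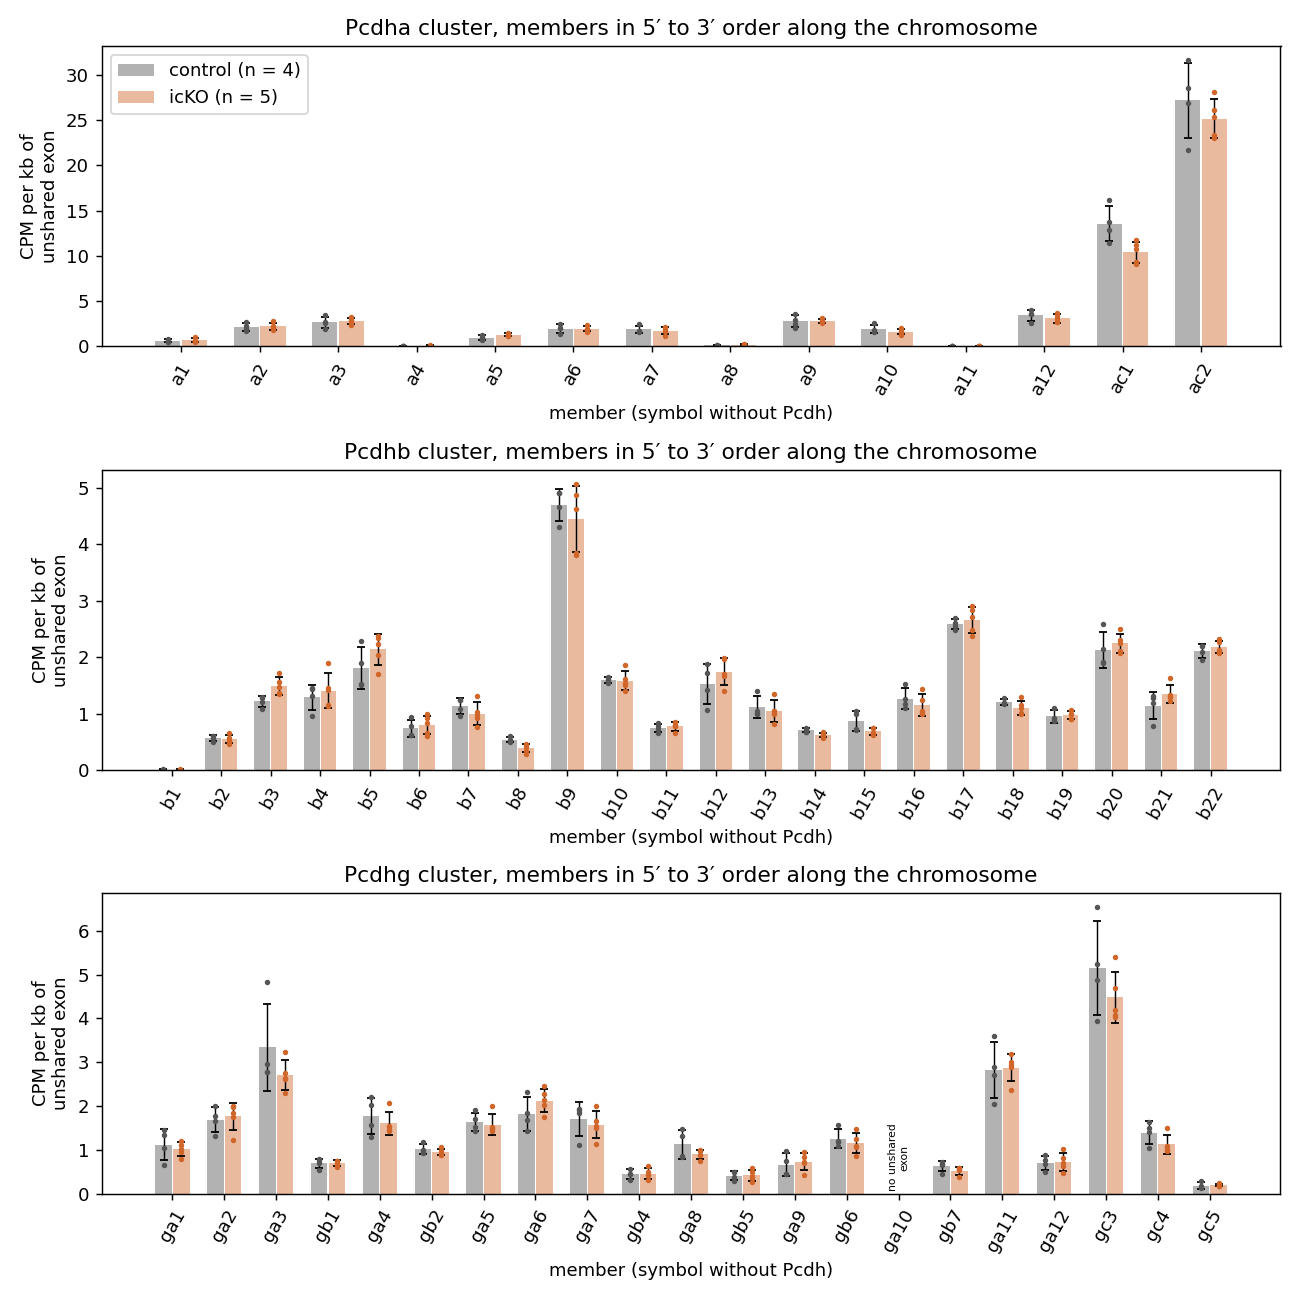
Level of each member in CPM per kb of exon shared with no other gene (y axis) in the 5′ to 3′ order of each cluster (x axis); bars are means, whiskers SD, points libraries, grey control (n = 4) and orange icKO (n = 5). Pcdhac2 and Pcdhac1 stand above all other members, Pcdhb9 leads Pcdhb, Pcdhgc3 leads Pcdhg on this length but not per kb unshared on the same strand (2.78 against 3.34 for Pcdhga3), and Pcdhga10 has no unshared exon.

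The comparison of icKO with control asked whether members differed after loss of Prdm12. With edgeR's quasi-likelihood test, 0 of 52 tested members were higher and 0 lower at an adjusted p under 0.05, where 0.475% of all 17258 tested genes passed as higher, 0.377% as lower and 0.852% in either direction. At an unadjusted p under 0.05, 1 member was higher, Pcdhb3, and 2 were lower, Pcdhac1 and Pcdhb8, which is 5.77% of the members against 11.1% of all tested genes (4.85% higher and 6.26% lower). DESeq2 called 0 higher and 1 lower, Pcdhac1, where it called 2.8% of the 15570 genes to which it gave an adjusted p (1.27% higher and 1.53% lower). Of the members, 25 had a log2 fold change above 0 and 27 below, with a median of -0.01 against -0.00 over all tested genes. The same median was -0.02 in Pcdha, 0.04 in Pcdhb and -0.08 in Pcdhg.

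The 95% confidence intervals of all 52 tested members lay within a 2-fold change in either direction, and those of 38 within 1.5-fold. The lowest bound was that of Pcdhb8, at 0.554 of the control level, and the highest that of Pcdha5, at 1.70 times. Among 47 of the 52 members the control mean was under 10 CPM. In bulk tissue, fewer cells of a type and less RNA per cell cannot be told apart, and an isoform used in few neurons is averaged with cells that lack it.

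**Figure D2:**
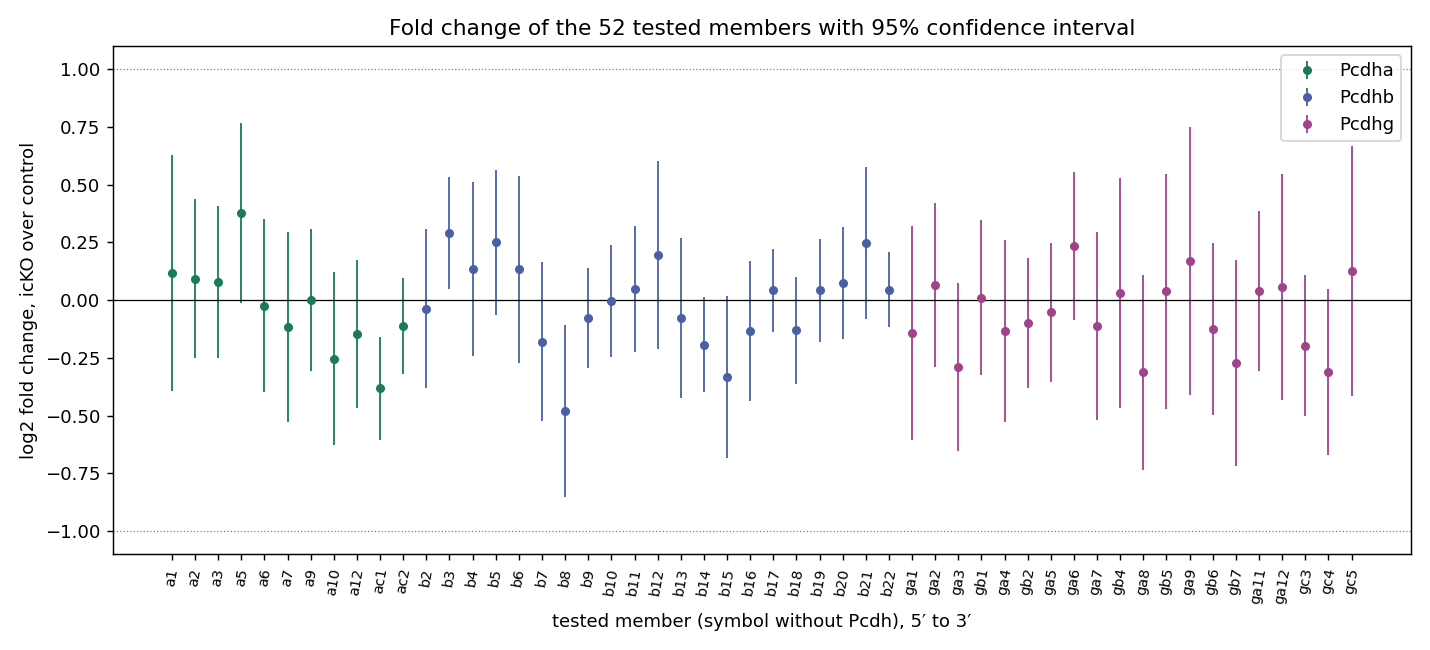
Log2 fold change of icKO over control (y axis) for the 52 tested members in 5′ to 3′ order (x axis), with 95% confidence intervals as vertical lines; dotted lines mark a 2-fold change. All intervals lie between the dotted lines, and those of Pcdhac1, Pcdhb3 and Pcdhb8 do not reach 0.

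Pcdhac1 (ENSMUSG00000103255) came nearest to a call. Its first exon spans positions 37090013 to 37092571 of chromosome 18, and none of its 2559 bases is shared with another gene. Control libraries 1 to 4 held 41.3, 29.3, 32.9 and 35.3 CPM, and icKO libraries 1 to 5 held 23.4, 30.1, 27.4, 23.8 and 28.6 CPM. Control 1 was the highest library, and the groups overlapped only in that icKO 2 lay above control 2. The control mean was 34.7 ± 5.02 CPM (SD, n = 4) and the icKO mean 26.7 ± 2.98 CPM (SD, n = 5), a log2 fold change of -0.38 (SE 0.10, 95% confidence interval -0.60 to -0.16).

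For Pcdhac1, edgeR gave an adjusted p of 0.129 and DESeq2 one of 0.0309. Over single libraries left out, the adjusted p by edgeR ranged from 0.0651 without control 2 to 0.307 without icKO 1. Without any filter on low counts, edgeR gave an adjusted p of 0.0246, and without control 2 and control 4 together, 0.117. The 4 libraries with high counts of Y-linked genes were control 1, control 3, icKO 1 and icKO 2. Among these 4 the log2 ratio of means was -0.47, and among the 5 with low ones -0.28. The direction was thus downward in each of these, while the call changed with the tool and the filter.

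Pcdhac2 (ENSMUSG00000102697), next to it on the chromosome, had 1611 to 2612 counts per library. Control libraries 1 to 4 held 95.7, 65.8, 81.4 and 86.4 CPM, and icKO libraries 1 to 5 held 70.6, 85.3, 76.7, 69.6 and 79.0 CPM. The groups overlapped, with control 2 the lowest library of all and control 1 the highest. Control 1 and icKO 2 were each the highest of their group in Pcdhac1 and Pcdhac2. Both were lowest of their groups in fibroblast and meninges markers (626 and 761 CPM) and highest in neuron markers (13561 and 13222 CPM). The part of these cells in the 2 levels was not tested. The log2 fold change of Pcdhac2 was -0.11 (95% confidence interval -0.32 to 0.10, edgeR adjusted p = 0.759). Its share of Pcdha counts was 50.8 to 52.4% in control and 51.1 to 54.6% in icKO.

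The share of Pcdha counts that Pcdhac1 held was looked at after its values were seen. It was 22.6, 22.9, 20.6 and 21.3% in control 1 to 4 and 17.5, 19.3, 18.7, 17.5 and 18.9% in icKO 1 to 5. Every icKO library lay below every control library, control 2 included. Both C-type genes were low in control 2. So were the alternate isoforms, at a sum of 33.1 CPM against 44.3 to 46.0 CPM in the other controls. The share therefore cannot show that drop. The mean share was 21.8 ± 1.09% (SD, n = 4) in control and 18.3 ± 0.835% (SD, n = 5) in icKO, and no test was made of it.

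**Figure D3:**
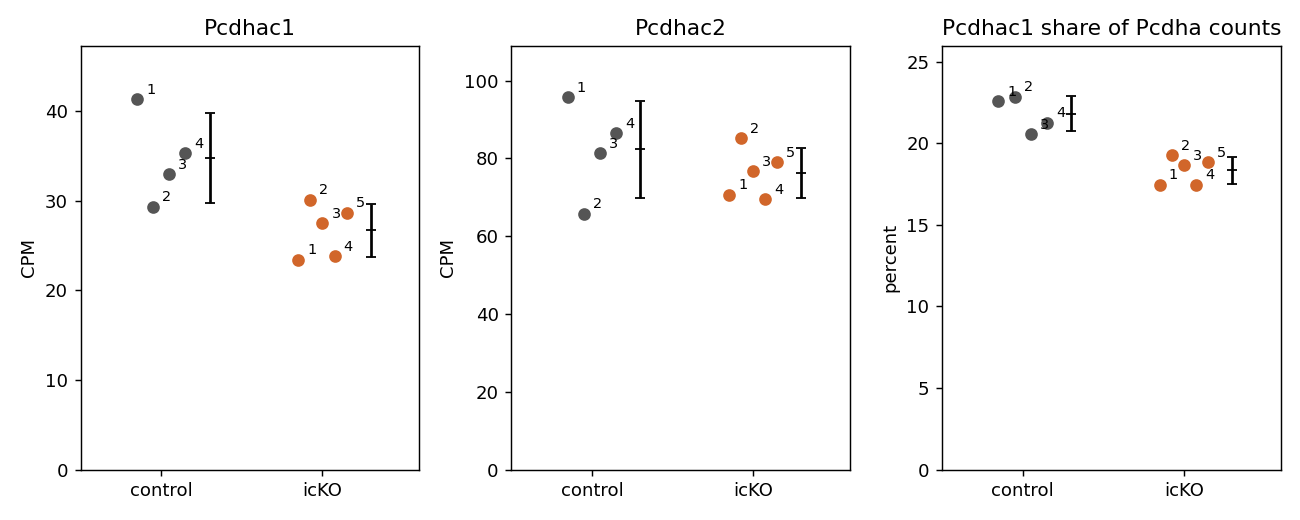
Pcdhac1 and Pcdhac2 in CPM and the percent of Pcdha counts held by Pcdhac1 (y axes) for each library of control and icKO (x axis); numbers are replicates, and bars beside the points are mean and SD. Pcdhac1 overlaps between the groups only at control 2 and icKO 2, Pcdhac2 overlaps widely, and the Pcdhac1 share runs from 17.5 to 19.3% in icKO and from 20.6 to 22.9% in control.

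Among the alternate Pcdha isoforms Pcdha5 had the smallest unadjusted p, 0.0565, and did not pass (edgeR adjusted p = 0.471). Its values were 2.49, 1.63, 3.02 and 2.11 CPM in control 1 to 4 and 3.60, 3.22, 2.65, 2.80 and 2.84 CPM in icKO 1 to 5, from 40 to 107 reads per library. Control 3 lay inside the icKO range, and the other control libraries below it. The log2 fold change was 0.38 (SE 0.18). Pcdha12 was at -0.15 (SE 0.15, adjusted p = 0.795), and the median over the 9 tested alternate isoforms of Pcdha was 0.00. For the gamma-A and gamma-B genes of Pcdhg the medians were -0.05 and -0.04. Over the 5 C-type members of both clusters the median was -0.20, which is the value of Pcdhgc3. Among these 5 only the interval of Pcdhac1 left out 0.

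In Pcdhb, 3 of 21 tested genes had groups that did not overlap, Pcdhb3 above and Pcdhb8 and Pcdhb14 below control. No tested gene of Pcdha or Pcdhg had such groups. The 3 genes were thus 5.77% of the 52 tested members, close to the 4.5% found among all tested genes (2.16% higher and 2.34% lower). Their share of the 21 Pcdhb genes alone is higher than that. Pcdhb8 held 1.72, 2.08, 1.86 and 1.85 CPM in control 1 to 4 and 1.55, 1.59, 1.39, 1.19 and 0.987 CPM in icKO 1 to 5, from 25 to 51 reads per library. Its log2 fold change was -0.48 (SE 0.17, edgeR adjusted p = 0.288), the lowest of all members.

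Pcdhb3 held 4.11, 4.90, 4.85 and 4.59 CPM in control 1 to 4 and 5.92, 5.15, 5.54, 5.10 and 6.48 CPM in icKO 1 to 5. Every icKO library lay above every control library, and the log2 fold change was 0.29 (SE 0.11, edgeR adjusted p = 0.336). Pcdhb14, named after its values were seen, differed by -0.19 on the log2 scale (SE 0.09, edgeR adjusted p = 0.491). The 3 Pcdhb genes with the highest control levels per kb had log2 fold changes of -0.08 (SE 0.10) for Pcdhb9, 0.04 (SE 0.08) for Pcdhb17 and 0.08 (SE 0.11) for Pcdhb20. Pcdhb9 was at 11.6 to 15.5 CPM in icKO, and all 4 control libraries lay inside that range.

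In Pcdhg no gene had groups that did not overlap. Pcdhgc4 had the smallest unadjusted p, 0.0856, at 4.91, 3.59, 5.18 and 5.72 CPM in control 1 to 4 and 3.40, 3.64, 3.76, 3.50 and 5.25 CPM in icKO 1 to 5. Here icKO 5 stood above the other icKO libraries and control 2 below the other controls. The log2 fold change was -0.31 (SE 0.17, edgeR adjusted p = 0.543). Pcdhga3 at -0.29 (SE 0.17, adjusted p = 0.586) came next, with control 4 at 12.6 CPM and the other controls at 7.22 to 7.73 CPM, and moved to -0.06 without control 4. Pcdhgc3 was at -0.20 (SE 0.14, adjusted p = 0.687), Pcdhga11 at 0.04 (SE 0.16) and Pcdhgc5 at 0.13 (SE 0.25). Without control 2, Pcdhga11 and Pcdhgc5 were at -0.09 and -0.02, and without control 4 Pcdhgc5 was at 0.40. Pcdhgc3 was at -0.30 without control 2 and at -0.07 without control 4.

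Summed over all members, Pcdhb was the steadiest cluster. Pcdhb totals were 114, 119, 118 and 127 CPM in control 1 to 4 and 122, 116, 124, 119.9 and 121 CPM in icKO 1 to 5, a ratio of icKO to control means of 1.01. Pcdha totals were 183, 128, 160.3 and 166 CPM in control and 134, 156, 147, 136 and 152 CPM in icKO, a ratio of 0.910. Here every icKO value lay inside the control range, as it did in Pcdhb. Pcdhg totals were 68.8, 55.2, 72.5 and 87.2 CPM in control and 61.9, 62.8, 74.9, 60.9 and 72.2 CPM in icKO, a ratio of 0.938, and again icKO lay inside the control range. No test was made of these sums.

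The Pcdha ratio was 0.996 without Pcdhac1 and Pcdhac2. That value depends on control 2, where the remaining Pcdha members summed to 33.1 CPM. The other controls held 44.3 to 46.0 CPM of them, and every icKO library lay below these, at 39.9 to 44.2 CPM. Over all Pcdha members the ratio was 0.846 within the libraries with high counts of Y-linked genes, and 0.986 within those with low ones. For Pcdhb the same values were 1.02 and 0.989, and for Pcdhg 0.883 and 0.974. The class with high counts held control 1, control 3, icKO 1 and icKO 2. The only controls in the class with low counts were control 2 and control 4. A difference between the classes can therefore not be told apart from what set these 2 libraries apart.

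**Figure D4:**
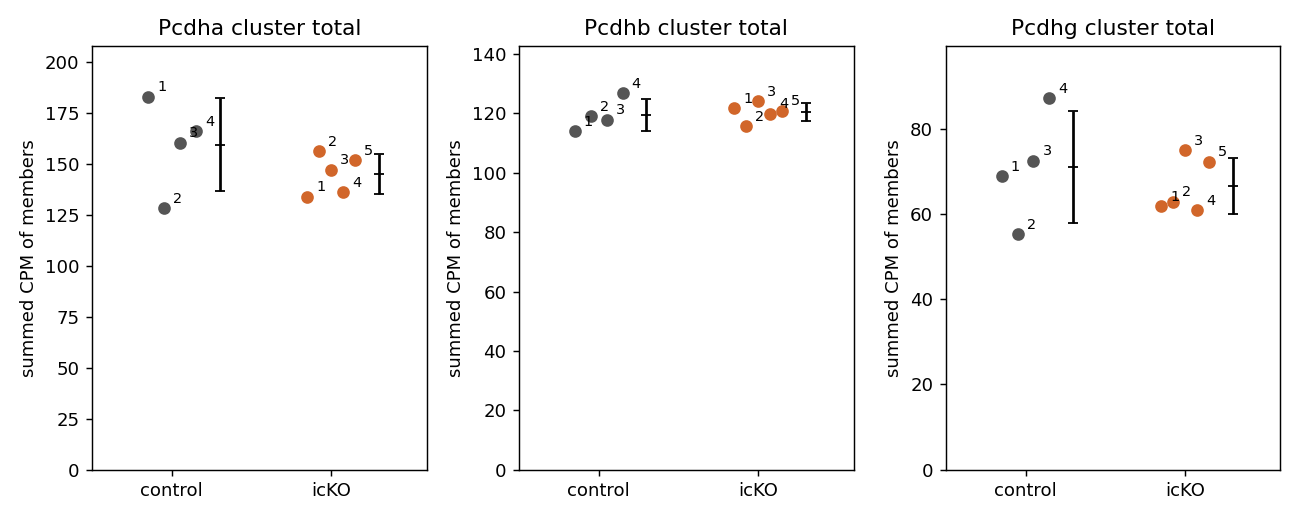
Summed CPM of all members of each cluster (y axes) for each library of control and icKO (x axis); numbers are replicates, and bars beside the points are mean and SD. The icKO libraries lie inside the control range in Pcdha, Pcdhb and Pcdhg. The Pcdhb totals stay between 114 and 127 CPM, and control 2 is the lowest library in Pcdha and Pcdhg but not in Pcdhb.

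The spread between control libraries differed by cluster. The coefficient of variation of the total over the 4 control libraries was 14.3% for Pcdha, 4.51% for Pcdhb and 18.5% for Pcdhg, and over the 5 icKO libraries 6.69, 2.57 and 9.77%. In control 2, 0 of 11 tested Pcdha members and 1 of 20 Pcdhg members lay above their control mean on the log2 CPM scale, but 13 of 21 Pcdhb members did. In control 4, 18 of 20 Pcdhg members lay above it, with 7 of 11 in Pcdha and 14 of 21 in Pcdhb. The median deviation was -0.31 in Pcdha and -0.35 in Pcdhg for control 2, and 0.32 in Pcdhg for control 4. Members of Pcdha and Pcdhg thus moved together in control 2, which carried the highest muscle and satellite glia marker sums of the 9 libraries, while control 4 carried the highest spinal cord marker sum. Neuron markers summed to 13284 CPM in control 2, below only control 1, and to 11289 CPM in control 4, the lowest of the controls. The part of any of these cells in the member levels was not tested.

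**Figure D5:**
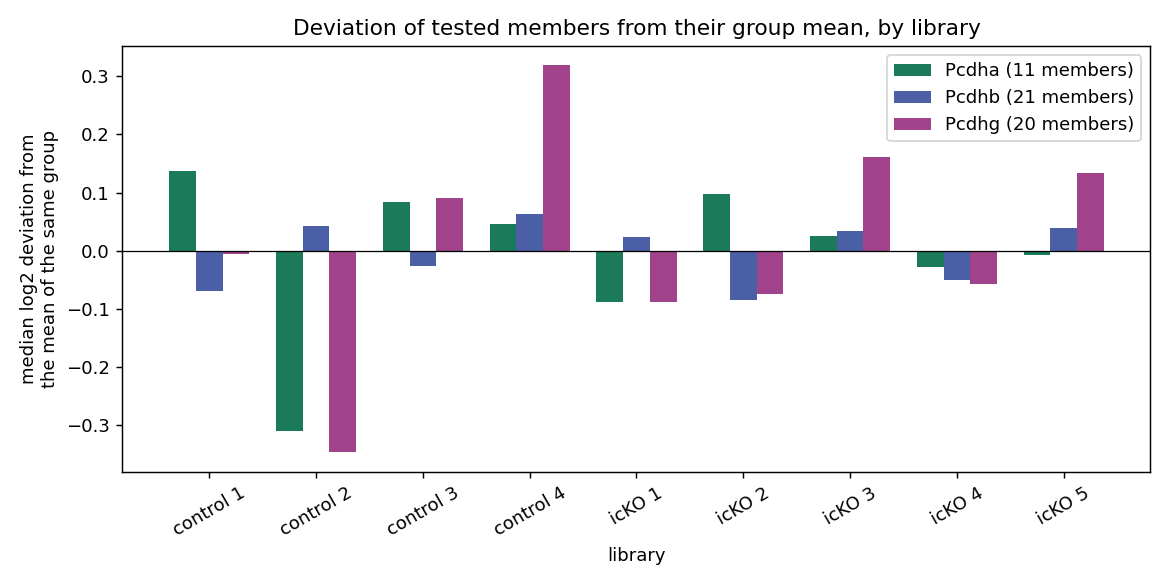
Median over tested members of the log2 CPM deviation from the mean of the same group (y axis) for each library (x axis), by cluster. Pcdha and Pcdhg are both low in control 2 at -0.31 and -0.35, Pcdhg is high in control 4 at 0.32, and Pcdhb lies between -0.07 and 0.06 in the control libraries.

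Genes that work with the clusters were read from 3 lists. Of 22 regulators of clustered protocadherin promoters, among them CTCF, the cohesin subunits, DNA methyltransferases, SMCHD1 and the G9a partner WIZ, 0 passed with edgeR's quasi-likelihood test or DESeq2 and 0 had an unadjusted p under 0.05. Of all genes, 0.852% passed with edgeR and 2.8% with DESeq2, and 11.1% had an unadjusted p under 0.05 in edgeR. The median log2 fold change of the 22 regulators was 0.01. The cohesin genes Stag2, at 0.13 (SE 0.06, adjusted p = 0.459), and Stag1, at 0.10 (SE 0.09, adjusted p = 0.739), had the smallest p-values. The median half-width of the 95% confidence interval was 0.14 on the log2 scale for this list and 0.35 for the members.

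Of 24 genes of signalling partners and proteolysis, 0 passed with edgeR's quasi-likelihood test. Without adjustment 3 were lower and 0 higher, against 6.26% lower and 4.85% higher among all tested genes. DESeq2 called 1 lower, Ptk2b, against 1.53% of all genes (2.8% in either direction). Ptk2b, the PYK2 kinase that clustered protocadherins are known to inhibit, was at 25.1 to 36.3 CPM in control and 16.7 to 26.2 CPM in icKO, which is -0.60 on the log2 scale (SE 0.13, edgeR adjusted p = 0.0645). Its call by edgeR was gained without icKO 3 (adjusted p = 0.0294), without control 2 (0.0375) and without a filter (0.00151). Ptk2b did not pass under any other edgeR alternative. With single libraries left out, its adjusted p by edgeR was highest without control 3, at 0.2115. Ret, a receptor tyrosine kinase known to bind alpha and gamma protocadherins, was at 784 to 1066 CPM in control and 624 to 792 CPM in icKO, which is -0.32 on the log2 scale (SE 0.10, edgeR adjusted p = 0.213).

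All 12 non-clustered protocadherins, which are encoded singly and outside these clusters, were tested, and 0 passed with edgeR's quasi-likelihood test, while 2 were higher and 4 lower without adjustment, against 4.85 and 6.26% of all tested genes. DESeq2 called Pcdh11x higher and Pcdh7 lower, against 2.8% of all genes. Pcdh11x, an X-linked gene, lay at 4.40 to 6.23 CPM in control and 6.44 to 7.67 CPM in icKO, which is 0.55 on the log2 scale (SE 0.12, edgeR adjusted p = 0.0617). It passed in edgeR without control 3 (adjusted p = 0.0187), with a robust fit (0.0477) and without a filter (0.0251). Pcdh11x did not pass under any other edgeR alternative. With single libraries left out, its adjusted p by edgeR was highest without icKO 1, at 0.1628. Pcdh7 lay at 87.4 to 89.5 CPM in control and 72.7 to 80.6 CPM in icKO, which is -0.20 on the log2 scale (SE 0.05, edgeR adjusted p = 0.0690). Groups did not overlap in 2 genes above control (Pcdh11x and Pcdh20) and 3 below (Pcdh7, Pcdh9 and Pcdh18). Among all tested genes 2.16% lay above and 2.34% below without overlap. Whether the 12 genes differed from the clustered members was not tested.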

How the data were processed

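Deposited values were raw read counts per Ensembl gene, 1 table per library, made by the authors. Per the submitters' processing notes, STAR 2.5.2a, featureCounts 1.5.0-p1 and, for base calls, bcl2fastq 2.20.0.422 were used with mm10. Not given in the sources used here are the annotation release, strand use and the treatment of reads with several matches. All 55536 identifiers were found in GENCODE M21 on GRCm38, the assembly of mm10, which gave symbols, positions and exons. Libraries were grouped by title.

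Genes were kept by filterByExpr of edgeR 4.0.16 (minimum count 10, minimum total 15), which left 17258, scaled with TMM factors and compared with edgeR's quasi-likelihood test in R 4.3.3, with Benjamini-Hochberg adjustment over all tested genes and a threshold of 0.05. Log2 fold changes are icKO minus control, SE is the size of the fold change over the square root of F, and intervals are 95%. Unshared exon bases were counted on both strands. The test was tested on simulated data. Members and lists were chosen with earlier results of these data known. Genes were named by rule: members past the threshold, the 3 highest per kb and the 2 with the smallest p in each cluster, the C-type members, Prdm12, and the genes of each list past the threshold or otherwise the 2 with the smallest p.

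Alternatives were RLE factors, library size alone, 2 other filters, a robust fit, DESeq2 1.42.0, a replicate block, a covariate for the Y-linked class, another exon length and leaving out libraries. Replicate pairs were compared by chi-square, at 6.03 to 23.2 per degree of freedom, so none was a duplicate within sampling error. Counts of 0 have a floor of 3 counts, which covers counting error only.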

Additional observations from a re-analysis of the deposited data

Results flagged for a closer look

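A library far from the rest of its group, by Dixon's criterion, was found in 11 of the 124 groups of libraries examined for the tested members, the named genes and the cluster totals. Chance alone flags about 1 group in 20. Control 4 was high for Pcdha7 at 5.26 CPM (others 3.43 to 3.72), Pcdhb13 at 5.20 CPM (others 3.68 to 3.89) and Pcdhga3 at 12.6 CPM (others 7.22 to 7.73). Control 2 was high for Pcdhb18 at 6.45 CPM (others 5.93 to 6.01) and low for Pcdhga7 at 2.86 CPM (others 4.69 to 4.96). Among icKO libraries, icKO 1 was high for Pcdhb21 at 6.90 CPM (others 5.17 to 5.66) and low for Pcdhgb7 at 0.673 CPM (others 0.968 to 1.07). The library icKO 2 was high for Pcdhga4 at 3.25 CPM (others 2.25 to 2.44) and Pcdhga5 at 5.07 CPM (others 3.62 to 3.87). The library icKO 5 was high for Pcdhgc4 at 5.25 CPM (others 3.40 to 3.76) and low for Pcdh11x at 6.44 CPM (others 7.45 to 7.67).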

How the results depend on the processing

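Without a count filter 1 member was lower (Pcdhac1), and 172 genes were higher and 221 lower over all tested (43.8% higher), against 82 and 65 in the fit reported. DESeq2 also called 1 member lower, with 198 genes higher and 238 lower (45.4% higher). Under every other alternative, each single library left out included, 0 members were called in either direction. Over single libraries left out, genes higher numbered 45 to 85 and genes lower 33 to 90, Prdm12 stayed at -2.53 to -2.37, and the ratio of cluster totals was 0.855 to 0.956 for Pcdha, 0.992 to 1.03 for Pcdhb and 0.875 to 1.02 for Pcdhg. Without icKO 1, 45 genes were higher and 33 lower, and genes lower numbered 34, 35, 38, 43 and 37 without icKO 3, icKO 4, icKO 5, control 1 and control 3. The Pcdha ratio was 0.996 without the C-type members, a value that depends on control 2, the only control below icKO in these sums. Without control 2 and control 4 together, chosen after seeing the data, the Pcdha ratio over all members was 0.845. That of Pcdhb was then 1.04, and 0 members were called. The median control level over members was 0.850 CPM per kb over all annotated exon bases against 1.24 over unshared ones and 1.21 over those unshared on the same strand, a length chosen after seeing the data. Without control 2 the sign turned for Pcdhga11 (log2 fold change -0.086) and Pcdhgc5 (-0.020, and 0.396 without control 4), both uncalled. With the replicate number as a block, 28 genes were higher and 20 lower and 0 members were called, with Pcdhac1 at -0.40 (adjusted p = 0.350). Same-numbered libraries had correlations of deviations from -0.18 to 0.17, and 0 of 8 matched best with their own number, so the numbers were not taken as pairs. The causes were not tested. Counts of 14 to 29 reads for Pcdhgc5 and similar low members limit what could be detected.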
